A study of Homo sapiens with 6 samples.

Results

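Divergent transcripts are noncoding RNAs that start beside the promoter of a protein-coding gene and run away from it on the other strand. Gene nomenclature gives such an RNA the symbol of its neighbour followed by -DT, so SP2-DT is the divergent transcript of SP2, and the neighbour is called its partner here. The deposited table lists 385 symbols ending in -DT among 23024 genes. The 51 described here were chosen by their level, a mean of at least 1 FPKM over all 6 libraries, and no -DT symbol began with LINC. FPKM divides a gene's reads or fragments by its length and by the size of the library. The other 334 -DT symbols lay under that mean, and the median over all 385 was 0.12 FPKM. Thus 13.2% of -DT symbols reached the limit, against 48.4% of all genes. Just inside it were ZNF8-DT at 1.006 FPKM and GSK3B-DT at 1.042 FPKM, and just outside it DNAJC3-DT at 0.9885 FPKM and OSER1-DT at 0.9615 FPKM.

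Total RNA was taken from 5637, an established bladder cancer cell line of human origin, which was transfected beforehand. The 3 control libraries are named NC, with the genotype given as wild type, and the 3 others, sh-RAD51C, come from cells that received a hairpin RNA targeting RAD51C, with the genotype given as knockdown. What NC stands for, the hairpin sequence, the time after transfection and whether the libraries of a group are separate cultures are not stated, so a p-value here speaks of the spread among 3 libraries a group, part or all of which may be technical. The series compared expression in 5637 cells with that in their RAD51C knockdown derivatives.

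Many mammalian promoters start transcription in both directions. The RNA that runs away from the gene usually meets early polyadenylation signals, is ended by the cleavage machinery or the Integrator complex and is degraded by the nuclear RNA exosome, while U1 snRNP protects the coding transcript from early cleavage. Some divergent RNAs are spliced and stable enough to be annotated as genes, and these carry the -DT symbols. Because both RNAs of a pair start at one region of open DNA, their levels can be compared as 2 outputs of the same promoter region.

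Libraries held 36068282 to 38079825 reads as inferred from the steps of the FPKM values. RAD51C, the gene the hairpin targets and a factor of homologous recombination, fell from 13.8 ± 0.804 FPKM (SD, n = 3) in NC to 3.18 ± 0.288 FPKM (SD, n = 3) in sh-RAD51C, or 23% of the NC level (log2 fold change -1.83, SE 0.064, limma adjusted p = 7.16e-09). Of 11152 genes tested, 49.4% passed at an adjusted p under 0.05, 23.2% higher and 26.2% lower in sh-RAD51C. Urothelial and epithelial markers summed to 2906 to 2997 FPKM in NC and 2664 to 2767 FPKM in sh-RAD51C over 11 genes. The uroplakin genes UPK2 and UPK3A lay under 1 FPKM, with UPK2 at 0.183 FPKM in NC and 0.189 FPKM in sh-RAD51C. Of 9 tested, 5 rose (KRT7, KRT8, KRT18, EPCAM and GATA3) and 4 fell (KRT5, KRT19, CDH1 and TP63). The 7 endothelial markers summed to 0.163 to 0.257 FPKM in NC and 0.331 to 0.461 FPKM in sh-RAD51C. Of the 7 fibroblast markers listed 2 were tested, with sums of 14.6 to 14.9 FPKM in NC and 12.1 to 12.9 FPKM in sh-RAD51C, and of 5 blood cell markers 3 were tested, with sums of 96 to 104 and 89.9 to 95 FPKM. PTPRC, which defines blood cells, reached at most 0.0122 FPKM, and COL1A2, which defines fibroblasts, at most 0.00525 FPKM. COL1A1 at 9.94 FPKM and LAPTM5 at 97.7 FPKM in NC made up most of these sums. THY1, the other fibroblast marker tested, rose from 4.56 FPKM in NC to 5.52 FPKM in sh-RAD51C, while COL1A1 fell to 6.83 FPKM. Of the blood cell markers, CD68 rose from 1.72 to 2.24 FPKM, while CD14 fell from 1.57 to 0.573 FPKM and LAPTM5 to 89.5 FPKM. No endothelial marker reached 1 FPKM. Among them CDH5 (0.0239 in NC and 0.245 FPKM in sh-RAD51C) and KDR (0.0138 and 0.0513 FPKM) were higher, and PECAM1 (0.114 and 0.0409 FPKM) was lower. The part of these shifts in the results below was not tested.

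The pairs lay head to head where positions were available. RefSeq on GRCh38.p14 gave start sites for both members of 36 pairs, all on opposite strands, and a single site per gene was used. In 34 of them the starts were apart by 7 to 1511 bases, with a median of 162 bases, and in 32 the distance was at most 500 bases. The starts of the CTBP1 pair overlapped by 915 bases and those of the MAP3K9 pair by 729 bases. GENCODE release 29 placed 47 pairs on opposite strands. In 12 of these, exons of the divergent transcript overlapped exons of the partner by 56 to 378 bases. Exons of 19 divergent transcripts overlapped those of some gene, always on the other strand, and the strand setting of the authors' counting is not stated, so values of those transcripts are uncertain. Among the transcripts that passed the test this concerns RNASEH1-DT, TOX-DT and FAM151B-DT, which overlap their partners, and NCK1-DT, which overlaps SLC35G2.

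Promoter windows of 300 bases, from 250 before to 50 after the start site, were taken from RefSeq (GRCh38.p14) for 38 divergent transcripts and 40 partners. Windows of 6 pairs are shown, those with the largest changes that passed with separate groups among the pairs with a window. Capitals mark matches, on either strand, to the letters CCAAT (NF-Y), GGGCGG (the GC box of SP and KLF factors), CCGGAAG (ETS), GCATGCGC (NRF1), TGACGTCA (CRE), TATAAA (bound by TBP), AAGATGGC (YY1) and CATTCC (TEAD), and neighbouring matches may overlap. A match is a description of the letters only.
ZC3H12A window, chr1:37474330-37474629, plus strand: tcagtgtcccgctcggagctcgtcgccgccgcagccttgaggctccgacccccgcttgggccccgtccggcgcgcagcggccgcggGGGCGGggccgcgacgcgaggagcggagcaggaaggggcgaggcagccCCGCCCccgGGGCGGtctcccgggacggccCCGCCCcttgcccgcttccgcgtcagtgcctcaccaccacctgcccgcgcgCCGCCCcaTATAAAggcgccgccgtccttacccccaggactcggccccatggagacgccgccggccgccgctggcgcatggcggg
SP2-DT window, chr17:47895767-47896066, minus strand: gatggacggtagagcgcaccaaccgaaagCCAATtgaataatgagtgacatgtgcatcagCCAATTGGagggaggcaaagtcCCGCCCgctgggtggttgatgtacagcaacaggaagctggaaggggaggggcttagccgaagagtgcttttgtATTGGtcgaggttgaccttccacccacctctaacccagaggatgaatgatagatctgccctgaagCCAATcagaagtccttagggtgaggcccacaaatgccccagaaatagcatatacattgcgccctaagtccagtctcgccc
IDH2-DT window, chr15:90101882-90102181, plus strand: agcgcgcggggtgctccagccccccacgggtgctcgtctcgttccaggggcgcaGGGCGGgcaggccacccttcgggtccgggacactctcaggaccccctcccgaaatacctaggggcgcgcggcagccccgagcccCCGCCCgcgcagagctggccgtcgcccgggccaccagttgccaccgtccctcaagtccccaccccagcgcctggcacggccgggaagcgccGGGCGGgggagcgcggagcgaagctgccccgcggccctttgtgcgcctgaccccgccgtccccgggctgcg
FAM151B-DT window, chr5:80487897-80488196, minus strand: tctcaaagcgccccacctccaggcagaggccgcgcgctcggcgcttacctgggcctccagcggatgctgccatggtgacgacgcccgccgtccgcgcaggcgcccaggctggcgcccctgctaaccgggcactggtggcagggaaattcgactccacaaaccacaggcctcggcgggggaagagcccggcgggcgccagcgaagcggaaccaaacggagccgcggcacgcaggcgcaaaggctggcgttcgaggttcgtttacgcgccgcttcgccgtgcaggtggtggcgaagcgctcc
ZDHHC12-DT window, chr9:128724212-128724511, plus strand: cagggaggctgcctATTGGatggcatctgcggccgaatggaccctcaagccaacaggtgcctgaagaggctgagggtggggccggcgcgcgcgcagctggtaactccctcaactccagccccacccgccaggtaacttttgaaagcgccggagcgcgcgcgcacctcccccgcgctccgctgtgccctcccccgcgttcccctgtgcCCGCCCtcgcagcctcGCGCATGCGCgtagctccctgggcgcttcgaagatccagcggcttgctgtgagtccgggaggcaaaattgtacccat
INSIG1-DT window, chr7:155297609-155297908, minus strand: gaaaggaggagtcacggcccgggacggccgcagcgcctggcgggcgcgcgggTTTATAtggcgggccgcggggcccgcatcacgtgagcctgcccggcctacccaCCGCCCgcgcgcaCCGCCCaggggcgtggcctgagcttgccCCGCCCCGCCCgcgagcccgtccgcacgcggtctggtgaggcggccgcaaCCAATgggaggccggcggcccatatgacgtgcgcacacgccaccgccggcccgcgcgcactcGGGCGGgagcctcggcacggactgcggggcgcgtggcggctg

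These windows differ in kind. The SP2-DT window holds 5 CCAAT matches, 53% G and C and 9 CpG, while those of IDH2-DT and INSIG1-DT hold 38 and 49 CpG with 77.7% and 78.7% G and C. The INSIG1-DT and FAM151B-DT windows share 281 and 253 of their bases with the window of the partner, so the same DNA is read for both genes, whereas those of IDH2-DT and IDH2 share 0. The ZDHHC12-DT window holds 2 overlapping GCATGCGC matches, and none of the searched letters was found in the FAM151B-DT window. Over all 38 windows the median was 68.5% G and C with 29.5 CpG, close to the 68.2% and 29 of the partners' windows, and all 27305 RefSeq windows had medians of 58.3% and 14. GGGCGG was present in 76.3% of divergent windows, 70% of partner windows and 44.6% of all windows, CCGGAAG in 36.8%, 35% and 10.7%, and CCAAT in 47.4%, 45% and 35.7%. TATAAA was present in 7.89%, 10% and 12%, and TGACGTCA was found in 0 divergent windows against 1.98% of all windows. GCATGCGC stood in 7.89%, 5% and 3.27%, AAGATGGC in 2.63%, 7.5% and 3.03%, and CATTCC in 10.5%, 12.5% and 14%. The AP-1 motif, searched with its middle base free, stood in 2.63%, 2.5% and 7.76%, and in none of the printed windows. Windows of a pair often overlap, so divergent and partner windows are not independent.

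The divergent transcripts kept were low-abundance RNAs, and their levels were weakly correlated with those of their partners. Their means ran from 1.01 to 19.2 FPKM with a median of 1.98 FPKM, and 45 of 51 lay under 5 FPKM. All 51 partners are listed and are protein coding. In 47 pairs the partner also reached 1 FPKM, with means of 1.04 to 107 FPKM and a median of 11.9 FPKM. The partner stood at a median of 5.44 times the level of its divergent transcript, from 0.466 times for PCCA to 72.7 times for IDH2, and at 10 times or more in 14 pairs. In 4 pairs the divergent transcript had the higher mean FPKM of the pair: PCCA, BAIAP2, TMEM161B and ANKRD42. The ratio fell under 1 for ANKRD42 in NC 3 (0.707) and sh-RAD51C 3 (0.981), and for TMEM161B in sh-RAD51C 2 (0.981). Inferred reads per library were fewer for PCCA-DT (233 to 314 against 884 to 1290), TMEM161B-DT (57 to 84 against 557 to 693) and ANKRD42-DT (52 to 101 against 396 to 457). The order in the PCCA, TMEM161B and ANKRD42 pairs thus depends on the gene lengths used. For BAIAP2-DT and BAIAP2 the ranges of reads overlapped, at 892 to 1311 and 953 to 1445. Across the 47 pairs, log2 mean levels gave a Pearson correlation of 0.15 and a Spearman correlation of 0.08, values that share libraries and are a description. Both RNAs of a pair were kept by their level, which narrows the range, so a weak value cannot show that the levels are unrelated.

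**Figure D1:**
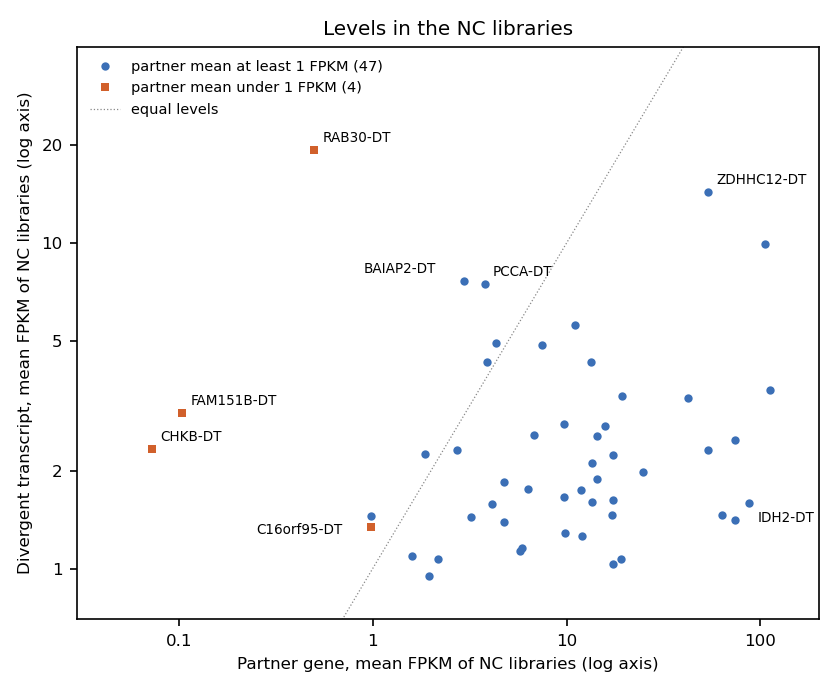
Mean FPKM of the 3 NC libraries for each divergent transcript (vertical, log axis) against its partner (horizontal, log axis), with equal levels on the dotted line and partners under 1 FPKM as squares. Most pairs lie right of the line, and RAB30-DT, FAM151B-DT and CHKB-DT lie far to its left.

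In 4 pairs the partner stayed under 1 FPKM and was not tested. RAB30-DT was the most abundant divergent transcript, at 20.7, 20.2 and 17 FPKM in NC and 20.1, 18.5 and 18.9 FPKM in sh-RAD51C, with overlapping groups (adjusted p = 0.964). RAB30, which encodes a Golgi GTPase, stood at 0.451 to 0.582 FPKM in NC and 0.368 to 0.442 FPKM in sh-RAD51C. In FPKM the noncoding RNA of this pair was thus far above the coding one in all 6 libraries. In inferred reads per library the gap was smaller, with 429 to 516 for RAB30-DT and 138 to 212 for RAB30. Exons of RAB30-DT overlap those of AP001767.2 and AP001767.3 on the other strand. CHKB-DT was at 1.93 to 2.67 FPKM in NC and 1.37 to 2.46 FPKM in sh-RAD51C, while CHKB, encoding choline kinase beta, was at 0.0903 FPKM or less and was listed at 0 in 1 library. FAM151B was at 0.138 FPKM or less beside FAM151B-DT at 3 ± 0.37 FPKM in NC (SD, n = 3). C16orf95 was at 0.982 ± 0.0581 FPKM in NC and 0.647 ± 0.127 FPKM in sh-RAD51C (SD, n = 3 each), just under the limit. ZDHHC12-DT, also among the most abundant, is described with its partner below.

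More divergent transcripts fell than rose after RAD51C knockdown. Of 51 tested, 14 were lower, 4 were higher and 33 did not pass (limma adjusted p under 0.05), and the groups did not overlap for 20. That is 7.84% higher and 27.5% lower. Among all 3776 genes with a mean under 5 FPKM, the level range of most members, 14% were higher and 28.9% lower, so the share of falls was near the background, and the difference in the share of rises was not tested. In bulk RNA a lower level can come from fewer cells of a kind or from less RNA per cell, which cannot be told apart. Groups did not overlap in FPKM for 58.4% of all genes and for 53.3% of the genes under 5 FPKM. The median log2 fold change of the members was -0.10, with 37 below 0 and 14 above 0, against -0.01 for all genes tested and -0.06 for those under 5 FPKM. Quantile normalization of the libraries gave 6 higher and 8 lower. The summed level of the 51 transcripts was 161, 165 and 153 FPKM in NC and 141, 138 and 139 FPKM in sh-RAD51C, so that the groups did not overlap and the sh-RAD51C mean was 87.3% of the NC mean. Without RAB30-DT and ZDHHC12-DT it was 87.9%.

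Few reads stand behind many of these values. Inferred reads per member and library ran from 8 to 1311, the lowest library of a member held a median of 92, and 12 members had under 50 in some library. In C16orf95-DT, CAMSAP1-DT, IDH2-DT, TOX-DT and ZNF8-DT 1 group averaged under 1 FPKM, so the other group carried them over the limit. TOX-DT is among the 4 rises, and IDH2-DT and C16orf95-DT are among the 14 falls, so these counts rest in part on the limit. The same holds for the counts of pairs that include TOX-DT or IDH2-DT. Of the 18 transcripts that passed, 9 did not pass without some single library, and 10 of the 33 others passed without some single library. Those 9 are given with that value below. Under quantile normalization 6 transcripts lost their calls (limma adjusted p): IDH2-DT (0.0679), NCK1-DT (0.0662), NUP50-DT (0.0505), MAGEA6-DT (0.112), C16orf95-DT (0.0731) and RIPK2-DT (0.116). With limma voom on inferred reads RIPK2-DT (adjusted p = 0.104), C16orf95-DT (0.0702) and MAGEA6-DT (0.0683) did not pass, and with array weights RIPK2-DT did not (0.0584). With no filter on low genes, those 6 and FAM151B-DT, MAP3K9-DT, TOX-DT and VPS13B-DT did not pass, at limma adjusted p from 0.074 to 0.141.

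**Figure D2:**
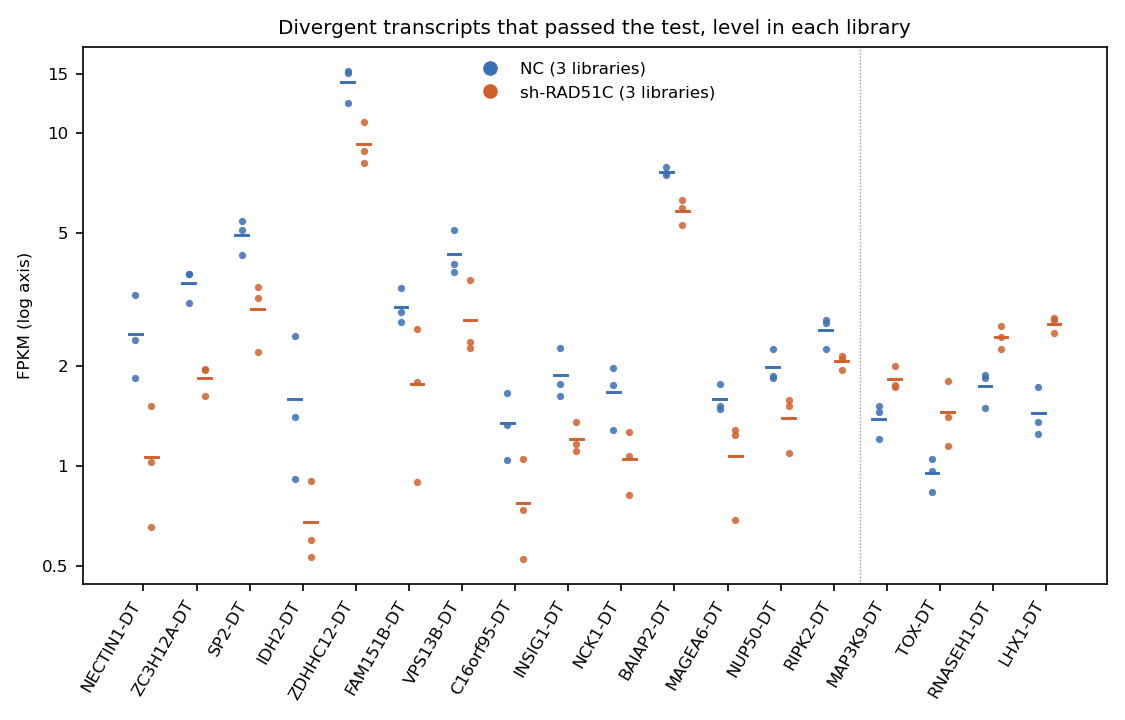
FPKM in each library (log axis) of the 18 divergent transcripts that passed the test, ordered by log2 fold change, with a bar at each group mean; the dotted line parts the 14 that were lower in sh-RAD51C from the 4 that were higher. The groups are separate in 17 of the 18, and those of C16orf95-DT meet at 1.04 and 1.05 FPKM.

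The partners changed in both directions, at shares near those of all genes. Of the 47 tested, 13 rose, 12 fell and 22 did not pass, with a median log2 fold change of 0.05. That is 27.7% higher and 25.5% lower, against 23.2% and 26.2% of all genes. Groups did not overlap for 30 of the 47, beside 58.4% of all genes. In 12 pairs both RNAs passed, 9 in the same direction and 3 in opposite directions. In 4 pairs only the divergent transcript passed, in 13 only the partner, and in 18 neither did. The signs of the 2 changes were the same in 27 of 47 pairs, or 57.4%.

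**Figure D3:**
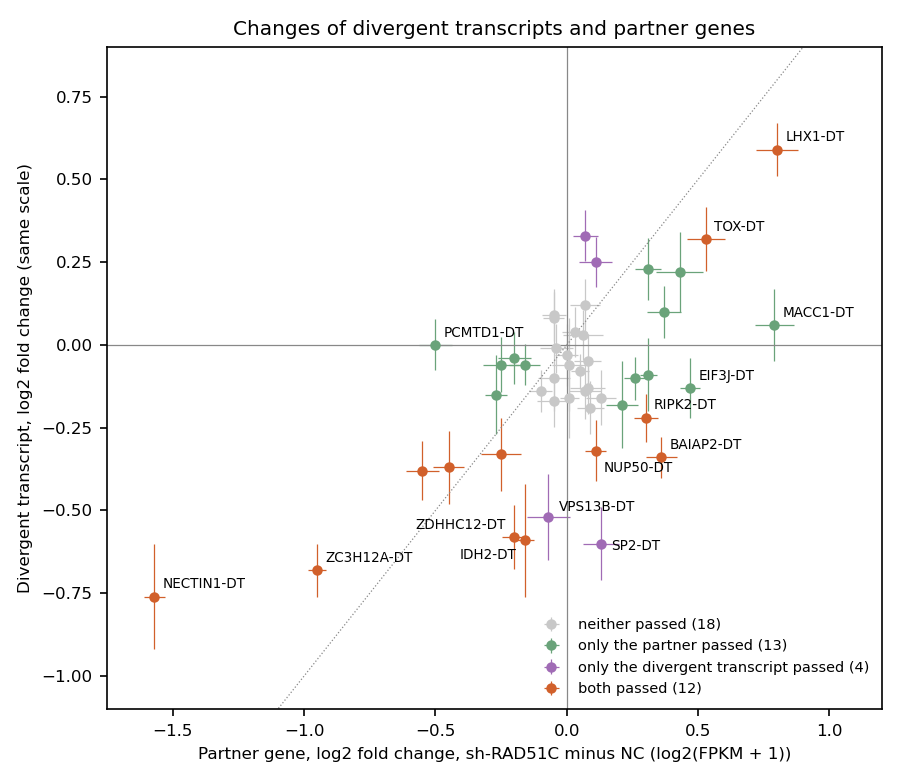
Log2 fold change (sh-RAD51C minus NC, log2(FPKM + 1)) of each divergent transcript against that of its partner for 47 pairs, with standard errors as bars, zero changes as solid lines and equal changes on the dotted line. This scale understates changes of low RNAs, so distance from the dotted line depends in part on level (NECTIN1-DT is at -0.76 here and at -1.25 with limma voom on inferred reads). The 12 pairs in which both passed include 7 at the lower left, 2 at the upper right and 3 at the lower right.

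Both RNAs rose in 2 pairs. LHX1-DT, beside the gene of a LIM homeobox transcription factor of early development, was at 1.73, 1.25 and 1.35 FPKM in NC and at 2.51, 2.77 and 2.74 FPKM in sh-RAD51C. Every sh-RAD51C library was above every NC library, and the mean was 1.85 times higher (log2 fold change 0.59, SE 0.081, adjusted p = 0.000128). LHX1 itself was at 2.92, 3.02 and 3.7 FPKM in NC and 5.9, 6.84 and 6.2 FPKM in sh-RAD51C (log2 fold change 0.80, adjusted p = 1.09e-05). The 2 RNAs of this pair thus rose together, and their groups were separate in both. TOX-DT was at 0.832, 0.967 and 1.05 FPKM in NC and 1.8, 1.15 and 1.4 FPKM in sh-RAD51C (log2 fold change 0.32, SE 0.097, adjusted p = 0.0169). Its partner TOX, a nuclear HMG-box protein known from T cell development, rose from 1.96 ± 0.206 to 3.26 ± 0.236 FPKM (SD, n = 3 each; log2 fold change 0.53, adjusted p = 0.000134). TOX-DT did not pass without NC 1 (limma adjusted p = 0.0604) or without sh-RAD51C 1 (adjusted p = 0.06), and its exons overlap those of TOX by 169 bases.

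Both RNAs fell in 7 pairs, and the largest falls of divergent transcripts were in this group. NECTIN1-DT was at 2.39, 3.26 and 1.83 FPKM in NC and 1.51, 1.03 and 0.654 FPKM in sh-RAD51C, 42.7% of the NC mean (log2 fold change -0.76, SE 0.16, adjusted p = 0.00218). NECTIN1, an adhesion molecule of adherens junctions, went from 75.1, 73.7 and 72.6 FPKM to 23.3, 23.8 and 25.6 FPKM, the largest fall among the 47 partners (log2 fold change -1.57, SE 0.041, adjusted p = 1.24e-09). Groups were separate for both RNAs, but the divergent transcript rested on 13 to 64 reads per library and varied far more within a group than the partner. ZC3H12A-DT was at 3.09, 3.77 and 3.77 FPKM in NC and 1.95, 1.62 and 1.94 FPKM in sh-RAD51C, 51.9% of the NC mean (log2 fold change -0.68, SE 0.08, adjusted p = 4.2e-05). ZC3H12A, an endoribonuclease that degrades inflammatory mRNAs, fell from 112 ± 1.3 to 57.5 ± 1.58 FPKM (SD, n = 3 each; adjusted p = 7.83e-09). Both RNAs of this pair were near one another in their relative fall, and the sh-RAD51C libraries lay below all NC libraries in each. The window printed for this pair is that of ZC3H12A, with 5 GGGCGG matches and 1 TATAAA match.

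In the next pairs both RNAs fell. The ratio of divergent to coding FPKM overlapped between the groups for ZDHHC12 (0.219 to 0.296 in NC and 0.181 to 0.228 in sh-RAD51C) and for IDH2 (0.0104 to 0.0285 and 0.00688 to 0.0111). ZDHHC12-DT, at chr9:128724462-128733243, was at 15.1, 15.3 and 12.3 FPKM in NC and 8.8, 10.8 and 8.13 FPKM in sh-RAD51C (log2 fold change -0.58, SE 0.097, adjusted p = 0.000528). ZDHHC12, a palmitoyltransferase gene whose start lies 335 bases away, went from 53.7 ± 2.33 to 46.6 ± 2.45 FPKM (SD, n = 3 each; log2 fold change -0.20, adjusted p = 0.00422). The divergent RNA was thus at 64.9% of its NC mean. IDH2-DT, at chr15:90102132-90133572, was at 2.46, 1.4 and 0.913 FPKM in NC and 0.9, 0.598 and 0.531 FPKM in sh-RAD51C (log2 fold change -0.59, SE 0.17, adjusted p = 0.0152). Its groups only just separate, it rested on 10 to 44 reads per library, and it did not pass without sh-RAD51C 3 (limma adjusted p = 0.0623). IDH2, the mitochondrial NADP-dependent isocitrate dehydrogenase, went from 87.1 ± 0.699 to 77.7 ± 3.11 FPKM (SD, n = 3 each; log2 fold change -0.16, adjusted p = 0.00365). The starts of this pair are 1511 bases apart, the widest gap among the pairs with positions.

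INSIG1-DT was at 1.62, 2.26 and 1.76 FPKM in NC and 1.16, 1.35 and 1.11 FPKM in sh-RAD51C (log2 fold change -0.38, SE 0.089, adjusted p = 0.00441). INSIG1, which retains the sterol-sensing SREBP machinery in the endoplasmic reticulum, fell from 14.3 ± 0.411 to 9.47 ± 0.913 FPKM (SD, n = 3 each; log2 fold change -0.55, adjusted p = 3.06e-05). The start sites used here are 220 bases apart, but the annotated gene, chr7:155288596-155298980, runs past the INSIG1 start at 155297878. The 2 RNAs ended at similar shares of NC, with 64.3% for the divergent transcript. NCK1-DT, at chr3:136841976-136862063, was at 1.96, 1.75 and 1.28 FPKM in NC and 0.818, 1.07 and 1.26 FPKM in sh-RAD51C (log2 fold change -0.37, SE 0.11, adjusted p = 0.0137). NCK1, an SH2 and SH3 adaptor of receptor tyrosine kinases, fell from 9.73 ± 0.488 to 6.89 ± 0.461 FPKM (SD, n = 3 each; adjusted p = 9.35e-05). The lowest NC library and the highest sh-RAD51C library of NCK1-DT were only 1.28 and 1.26 FPKM, and it did not pass without NC 1 (limma adjusted p = 0.0564) or without sh-RAD51C 1 (adjusted p = 0.0579). MAGEA6-DT, named after its values were seen, was at 1.48, 1.51 and 1.76 FPKM in NC and 1.24, 1.28 and 0.685 FPKM in sh-RAD51C (log2 fold change -0.33, adjusted p = 0.0263). MAGEA6, a cancer-testis antigen with near-identical family members, fell from 4.14 ± 0.0109 to 3.34 ± 0.462 FPKM (SD, n = 3 each; adjusted p = 0.0197), and reads of the family may be shared. MAGEA6-DT did not pass without NC 3 (limma adjusted p = 0.0868) or without sh-RAD51C 3 (adjusted p = 0.0745), and MAGEA6 did not pass without NC 2 (adjusted p = 0.0538) or without sh-RAD51C 2 (adjusted p = 0.0705).

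In 3 pairs the RNAs moved in opposite directions, each time with the divergent transcript lower and the coding gene higher. BAIAP2-DT, at chr17:81029133-81034719, was at 7.48, 7.9 and 7.56 FPKM in NC and 5.3, 5.94 and 6.29 FPKM in sh-RAD51C (log2 fold change -0.34, SE 0.062, adjusted p = 0.000905). BAIAP2, an adaptor that acts on actin in membrane protrusions, was at 2.99, 2.86 and 3.04 FPKM in NC and 4.28, 3.92 and 4.03 FPKM in sh-RAD51C (log2 fold change 0.36, SE 0.059, adjusted p = 0.000465). The groups were separate for both RNAs. With 892 to 1311 reads per library BAIAP2-DT is among the best covered members, its start is 432 bases from that of BAIAP2, and no exon overlap is annotated. The ratio of divergent to coding FPKM was 2.51, 2.76 and 2.49 in NC and 1.24, 1.52 and 1.56 in sh-RAD51C.

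The other opposite pairs rest on smaller changes. NUP50-DT, at chr22:45133758-45163781, was at 1.83, 1.86 and 2.24 FPKM in NC and 1.09, 1.51 and 1.58 FPKM in sh-RAD51C (log2 fold change -0.32, SE 0.092, adjusted p = 0.0141). NUP50, a nuclear pore component, was at 25.1, 23.8 and 25.3 FPKM in NC and 26.3, 27.1 and 27 FPKM in sh-RAD51C (log2 fold change 0.11, SE 0.039, adjusted p = 0.0338). NUP50-DT did not pass without NC 3 (limma adjusted p = 0.0586). NUP50 did not pass without NC 1 (0.0613), NC 2 (0.157), sh-RAD51C 2 (0.0874) or sh-RAD51C 3 (limma adjusted p = 0.0763). RIPK2-DT was at 2.68, 2.25 and 2.74 FPKM in NC and 1.94, 2.14 and 2.1 FPKM in sh-RAD51C (log2 fold change -0.22, SE 0.073, adjusted p = 0.029). RIPK2, the kinase downstream of the NOD receptors, rose from 14.3 ± 0.44 to 17.8 ± 0.743 FPKM (SD, n = 3 each; log2 fold change 0.30, adjusted p = 0.00029). The groups of RIPK2-DT were separate but close, at 2.25 and 2.14 FPKM. RIPK2-DT did not pass without NC 1 (0.096), NC 3 (0.105), sh-RAD51C 1 (0.0771) or sh-RAD51C 3 (limma adjusted p = 0.0523). Without NC 1 or without sh-RAD51C 3, only 1 of the opposite pairs passed in both RNAs.

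In 4 pairs only the divergent transcript passed. SP2-DT, at chr17:47891229-47895816, was at 5.11, 5.42 and 4.3 FPKM in NC and 3.2, 2.2 and 3.45 FPKM in sh-RAD51C, 59.7% of the NC mean (log2 fold change -0.60, SE 0.11, adjusted p = 0.00125). SP2, a zinc finger factor of the SP family, was at 4.39, 4.39 and 4.26 FPKM in NC and 5.24, 4.28 and 5.01 FPKM in sh-RAD51C (log2 fold change 0.13, adjusted p = 0.151). In FPKM SP2-DT was therefore the higher of the pair in each NC library and the lower in each sh-RAD51C library. The ratios were 1.17, 1.23 and 1.01 against 0.61, 0.515 and 0.688. SP2-DT rested on 43 to 107 inferred reads per library beside 1306 to 1647 for SP2, so that order depends on the gene lengths used. SP2 passed without sh-RAD51C 2 (log2 fold change 0.20, limma adjusted p = 0.0279). VPS13B-DT was at 4.05, 5.11 and 3.81 FPKM in NC and 3.62, 2.26 and 2.35 FPKM in sh-RAD51C (log2 fold change -0.52, SE 0.13, adjusted p = 0.00612). VPS13B, a Golgi protein of lipid transfer, was at 3.89 ± 0.12 and 3.69 ± 0.555 FPKM (SD, n = 3 each; adjusted p = 0.532).

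The 2 transcripts that rose alone overlap their partner's gene or start. RNASEH1-DT, at chr2:3558386-3561750, was at 1.84, 1.49 and 1.88 FPKM in NC and 2.24, 2.63 and 2.43 FPKM in sh-RAD51C (log2 fold change 0.33, SE 0.077, adjusted p = 0.00449). RNASEH1, which degrades the RNA strand of RNA-DNA hybrids, was at 11.9 ± 0.36 and 12.5 ± 0.579 FPKM (SD, n = 3 each; adjusted p = 0.268). Their starts are 53 bases apart and 125 bases of exon overlap. MAP3K9-DT, at chr14:70808784-70816048, was at 1.45, 1.2 and 1.51 FPKM in NC and 1.75, 2 and 1.73 FPKM in sh-RAD51C (log2 fold change 0.25, SE 0.075, adjusted p = 0.0183). MAP3K9, a mixed lineage kinase upstream of JNK, was at 4.78 ± 0.31 and 5.23 ± 0.325 FPKM (SD, n = 3 each; adjusted p = 0.178). MAP3K9-DT did not pass without NC 2 (limma adjusted p = 0.0851) or without sh-RAD51C 2 (adjusted p = 0.0729).

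Both transcripts without a tested partner that passed were lower. FAM151B-DT was at 2.9, 3.41 and 2.7 FPKM in NC and 1.79, 0.896 and 2.58 FPKM in sh-RAD51C (log2 fold change -0.58, SE 0.18, adjusted p = 0.0181). The third sh-RAD51C library nearly reached the NC values, and the transcript did not pass without NC 2 (limma adjusted p = 0.0624). C16orf95-DT, named after its values were seen, was at 1.04, 1.66 and 1.33 FPKM in NC and 0.524, 0.739 and 1.05 FPKM in sh-RAD51C (log2 fold change -0.41, SE 0.12, adjusted p = 0.0154). It rested on 8 to 25 reads per library, the fewest among the members that passed, and its groups overlapped. It did not pass without NC 2 (limma adjusted p = 0.0662) or without sh-RAD51C 1 (adjusted p = 0.0661).

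In 13 pairs only the partner passed, 8 higher and 5 lower. MACC1, a regulator of the MET receptor gene in colon cancer, had the largest of these rises, from 2.72, 2.83 and 2.62 FPKM to 4.95, 6.18 and 5.25 FPKM (log2 fold change 0.79, adjusted p = 6.86e-06). MACC1-DT was at 1.99, 2.86 and 2.1 FPKM in NC and 3, 2.29 and 2.11 FPKM in sh-RAD51C, with overlapping groups (log2 fold change 0.06, SE 0.11, adjusted p = 0.664). The coding RNA rose without a shift of that size in the divergent one. EIF3J, a subunit of a translation initiation factor, rose from 42.5 ± 1.59 to 59.5 ± 0.951 FPKM (SD, n = 3 each; log2 fold change 0.47, adjusted p = 2.13e-06). EIF3J-DT, at chr15:44534505-44536923, was at 3.19, 4 and 2.86 FPKM in NC and 3.11, 3.07 and 2.72 FPKM in sh-RAD51C (log2 fold change -0.13, SE 0.091, adjusted p = 0.271). The other partners that rose alone, named after their values were seen, were CENATAC of the minor spliceosome (0.37), the TRAIL receptor gene TNFRSF10A (0.43), the small Maf factor MAFG (0.31), the threonyl-tRNA synthetase TARS1 (0.31), the mitoribosome subunit MRPL20 (0.26) and the peptidase DPP3 (0.21), with log2 fold changes in parentheses. The partners that fell alone were PCMTD1 (-0.50), the protease FAM111A (-0.27), PCCA of propionyl-CoA carboxylase (-0.25), MIF4GD (-0.20) and the cohesin loader NIPBL (-0.16). Their divergent transcripts had log2 fold changes from -0.18 for DPP3-DT to 0.23 for MAFG-DT. Without 1 library DPP3, MIF4GD, NIPBL or PCCA did not pass: DPP3 without NC 1 (0.0572) or sh-RAD51C 3 (0.0539), MIF4GD without NC 1 (0.0894) or sh-RAD51C 3 (0.0575), and PCCA without NC 2 (limma adjusted p = 0.0512). NIPBL passed without sh-RAD51C 3 and did not pass without any 1 of the other libraries (limma adjusted p from 0.0564 to 0.129).

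Across the 47 pairs the changes of the 2 RNAs gave a Pearson correlation of 0.63 and a Spearman correlation of 0.41. Without NECTIN1 and ZC3H12A, the partners farthest from the median, these were 0.48 and 0.33. The points share the 6 libraries and, within a pair, a promoter region, so the values are a description.

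The ratio of divergent to coding FPKM was used to describe how the 2 outputs of a pair moved against each other. It did not overlap between the groups in 15 of 47 pairs, or 31.9%, and was lower in sh-RAD51C in 11 and higher in 4. Beside this stand 48.2% of the -AS1 pairs described below and, for single genes in FPKM, 58.4% of all genes. The share over other pairs of genes was not computed. Over all 47 pairs, 32 ratios were lower and 15 higher in sh-RAD51C, with a median log2 change of -0.15. With 3 libraries against 3, an exact two-sided permutation test of a ratio cannot go below p = 0.1, the value of each of the 15. Among the 15, the lowest ratios relative to NC were those of SP2-DT to SP2 (1.14 ± 0.115 and 0.604 ± 0.087, SD, n = 3 each), MACC1-DT to MACC1 (0.849 ± 0.145 and 0.459 ± 0.128) and BAIAP2-DT to BAIAP2 (2.59 ± 0.152 and 1.44 ± 0.174). In these 3 pairs the NC mean was 1.8 to 1.88 times the sh-RAD51C mean. It was reached in different ways, by a lower divergent RNA for SP2, by a higher coding RNA for MACC1 and by both for BAIAP2. EIF3J-DT to EIF3J went from 0.0766, 0.0961 and 0.0645 to 0.0523, 0.0508 and 0.0463. RIPK2-DT to RIPK2 went from 0.192, 0.152 and 0.194 to 0.104, 0.121 and 0.123, and NUP50-DT to NUP50 from 0.0728, 0.0783 and 0.0887 to 0.0414, 0.0557 and 0.0584. In these 3 pairs the coding RNA was by far the more abundant in both groups. The higher ratios, named after their values were seen, were those of PCMTD1-DT (1.53 times the NC mean), RNASEH1-DT (1.33), MAP3K9-DT (1.21) and PCCA-DT (1.19), whose groups touch at 2.27 after rounding. The remaining 5 lower ratios were those of CAMSAP1-DT, COX10-DT, MRPL20-DT, TMEM161B-DT and WASL-DT, at 0.729 to 0.82 times the NC mean. Neither RNA passed on its own in the CAMSAP1, COX10, TMEM161B and WASL pairs.

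**Figure D4:**
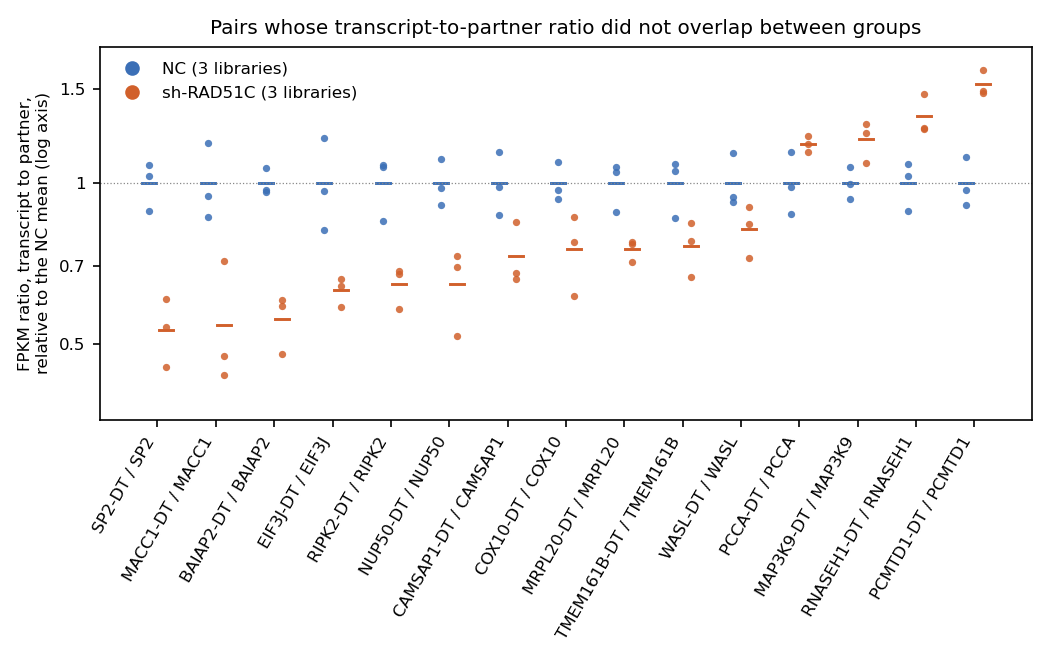
Ratio of divergent to partner FPKM in each library, divided by the mean ratio of the NC libraries (log axis), for the 15 pairs whose groups did not overlap; bars are group means and the dotted line is the NC mean. The ratio is lower in sh-RAD51C in 11 pairs and higher in 4.

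Neither RNA passed in 18 pairs. They include GRHL2-DT, beside the gene of an epithelial transcription factor, at 5.62 ± 0.445 FPKM in NC and 5.82 ± 0.592 FPKM in sh-RAD51C (SD, n = 3 each; adjusted p = 0.679), and GRHL2 at 11.1 ± 0.351 and 11.3 ± 0.35 FPKM (adjusted p = 0.595). PAXIP1-DT was at 4.85 ± 0.121 FPKM in NC and 4.21 ± 0.562 FPKM in sh-RAD51C (adjusted p = 0.0851), and CTBP1-DT at 4.3 ± 0.328 and 3.8 ± 0.117 FPKM (adjusted p = 0.086). Both had groups that did not overlap, and PAXIP1-DT passed without sh-RAD51C 2 (log2 fold change -0.24, limma adjusted p = 0.028). The divergent transcripts that did not pass had log2 fold changes between -0.25 for CHKB-DT and 0.23 for MAFG-DT, and a miss of the threshold does not show equal levels.

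Genes named with the suffix -AS1, noncoding RNAs antisense to a coding gene at any position, were read the same way for comparison. With the same limit there were 148 of 981, of which 18 rose and 67 fell, or 12.2% and 45.3%, with a median log2 fold change of -0.20. Beside these stand 14% and 28.9% of all genes under 5 FPKM, and 23.2% and 26.2% of all genes. In 114 pairs with a tested partner, both RNAs passed in 37, in the same direction in 22 and in opposite directions in 15. The changes gave a Pearson correlation of 0.22 and a Spearman correlation of 0.21, and the ratio did not overlap in 55 pairs, or 48.2%, lower in 43 and higher in 12. The signs of the 2 changes were the same in 74 of the 114 pairs, or 64.9%, beside 57.4% of the -DT pairs. The difference between the 2 classes was not tested.

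In a joint list of RNA processing factors, more rose than fell. It holds factors that end and degrade divergent RNAs and also U1 snRNP, which protects the coding transcript. Of 60 tested, 21 rose, 5 fell and 34 did not pass, with a median log2 fold change of 0.06. For these and for the groups named next, the shares over all genes are 23.2% higher and 26.2% lower. Those shares depend on level, with 14% and 28.9% among genes under 5 FPKM, and shares matched to the level of these factors were not computed. Without NC 2 the rises were 13, and without NC 2, NC 3, sh-RAD51C 1 or sh-RAD51C 3 the falls were 3. In the RNA exosome and its adaptors 11 of 24 rose and 1 fell. EXOSC4, a core ring subunit, was at 19.3, 19.4 and 19.3 FPKM in NC and 25.7, 24.6 and 24.3 FPKM in sh-RAD51C. EXOSC5, another ring subunit, rose from 16.8 ± 0.753 to 20.4 ± 0.242 FPKM (SD, n = 3 each). ZFC3H1, a subunit of the adaptor that brings polyadenylated nuclear RNA to the exosome, was the 1 that fell, from 6.39, 6.53 and 6.24 FPKM to 3.79, 4.51 and 4.85 FPKM (limma adjusted p = 0.000341). The exosome genes summed to 398 to 407 FPKM in NC and 438 to 442 FPKM in sh-RAD51C, with no overlap. Of the Integrator subunits, 3 of 14 rose (INTS7, INTS10 and INTS13) and 1 fell (INTS8, named after its values were seen). INTS13 went from 4.96 ± 0.139 to 6.38 ± 0.386 FPKM (SD, n = 3 each). Among genes of 3′ end cleavage, termination and U1 snRNP, 7 of 22 rose and 3 fell (SNRPA and, named after their values were seen, SYMPK and SNRNP70). The cleavage factor CSTF2 rose from 19.5 ± 0.484 to 24 ± 1.71 FPKM, the polymerase phosphatase SSU72 rose from 51.7 ± 0.266 to 59.7 ± 3.58 FPKM, and the U1 protein SNRPA fell from 90.4 ± 1.2 to 81 ± 3.66 FPKM (SD, n = 3 each). The part of these factors in the levels of divergent transcripts was not tested.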

How the data were processed

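Libraries were made from TRIzol-extracted RNA of 5637 cells with a VAHTS Universal V6 kit, per the labels' protocols. The authors deposited FPKM values per gene symbol. The submitters' processing notes name hg38, R 3.2.0 and DESeq2 without a role; no aligner, counter, strand setting or annotation is named in the sources used here. Titles matched each of the 6 columns to its library. Values were whole multiples of a step set by gene length and library total, so reads were inferred for 100% of the 11152 genes kept (tolerance 0.001) and used for depth and 1 alternative.

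Genes whose mean reached 1 FPKM were fitted as log2(FPKM + 1), sh-RAD51C against NC. The tool was limma 3.58.1 under R 4.3.3, with eBayes and a trend and Benjamini-Hochberg adjustment over all genes kept. A change passed at an adjusted p under 0.05. Log2 fold changes on this scale understate those of low genes. Ratios used FPKM without a pseudocount. Partners were matched by exact symbol, positions came from RefSeq (GRCh38.p14) and GENCODE release 29, and promoter windows from RefSeq. The fit was tested on simulated data. Other steps ran in Python 3.11.15 with pandas 2.3.3, scipy 1.17.1 and numpy 2.4.6.

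The members and gene lists were chosen with earlier results of these data known. Named are the 10 largest rises and falls that passed with separate groups (4 rose), their partners, every opposite pair, the 6 largest shifts of ratio, the 3 highest levels, RAD51C and 3 factors per RNA processing list; 1 gene of this rule is not reported here. Alternatives covered the pseudocount, filter, scaling, variance model, replicate block, threshold, voom, overlapping exons and omission of each library.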

Additional observations from a re-analysis of the deposited data

How the results depend on the processing

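Over 19 alternatives, 2004 values of 107 single genes gave 1899 with the same side of the threshold, 82 that no longer passed and 23 that newly passed. Genes that passed in the report changed sign in 0 of 979 values. Of the 55 genes that did not pass, 17 changed sign in some alternative, in 36 values. Of 51 divergent transcripts, 4 rose and 14 fell in the report. With a mean of at least 0.5 FPKM, 92 divergent transcripts entered and 22 fell, partners rose in 24 and fell in 20, both RNAs passed in the same direction in 14 pairs and in opposite directions in 5, and 28 ratios did not overlap. With at least 2 FPKM, 25 entered, 2 rose and 7 fell, partners rose in 6 and fell in 5, 3 pairs passed in the same direction and 8 ratios did not overlap. Without a filter, 2 rose and 6 fell, with 5 pairs in the same direction and 1 opposite. Quantile normalization gave 8 falls and 1 opposite pair. An adjusted p under 0.01 gave 2 rises and 7 falls, 5 pairs in the same direction, 1 opposite, and RNA processing factors higher in 12 and lower in 3. Limma without a trend gave 3 lower factors. Leaving out pairs with overlapping exons gave 2 rises. The correlation of changes, 0.63 in the report, was 0.65 with a pseudocount of 0.1, 0.54 at 0.5 FPKM, 0.54 at 2 FPKM and 0.65 with voom on inferred reads. Voom gave 4 rises and 11 falls.

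Leaving out each library in turn gave 3 to 5 rises and 11 to 16 falls of divergent transcripts, 1 to 3 opposite pairs, correlations of 0.58 to 0.63, and RNA processing factors higher in 13 to 20 and lower in 3 to 4. Ratios did not overlap in 18 to 21 pairs, where fewer libraries make separation easier. The cause of these shifts was not tested apart from the changed number of genes or libraries. Same-numbered libraries correlated at 0.19, 0.0257 and 0.0909 in their deviations from group means, so the numbers were not taken to pair them. With a replicate block, 5 divergent transcripts rose, 14 fell and 5569 genes passed, against 5511. Depth differs widely among the divergent transcripts, from 8 to 1311 inferred reads per library, and 12 had under 50 in some library.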
